A study of Mus musculus with 2 samples.

Results

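The genes described here carry the mitochondrial pathway of apoptosis in neurons: the effectors Bax and Bak1, the guardians Bcl2, Bcl2l1, Bcl2l2 and Mcl1, the BH3-only gene Bcl2l11, and the apoptosome genes Apaf1 and Casp9. They were taken by name as a list of 9 genes among 55536 annotated genes, and all 9 were matched by symbol. Total RNA came from the left cerebral cortex of 2 male B6CASTF1/J mice, F1 hybrids of C57BL/6 and CAST, on postnatal day 4. Each animal gave 1 library, called replicate 1 and replicate 2 as in the labels, from 300 ng of RNA with ribosomal RNA reduced, strand kept and ERCC spike-in RNAs added. The labels number the tissue samples as different males but give both the same donor record, so n = 2 counts animals only as far as those sample descriptions go. Both animals share strain, sex, age and tissue, and neither was treated, so the values describe 1 untreated group and hold no contrast between conditions. Sequencing depth, as the sum of expected counts, was 26897687 for replicate 1 and 29511737 for replicate 2, so a gene with 0 counts may have a level of up to 0.112 CPM in replicate 1 and 0.102 CPM in replicate 2.

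In the mitochondrial pathway, BH3-only proteins respond to stress or to the loss of a survival factor and engage the guardians, the anti-apoptotic members of the BCL2 family. Once freed from the guardians, Bax and Bak open the outer mitochondrial membrane, cytochrome c reaches the cytosol, and Apaf1 assembles around it into the apoptosome that activates caspase 9. In rodent cortex many neurons born before birth die by this pathway during the first postnatal weeks, and mature neurons are known to resist it.

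The labelled tissue was checked on marker genes. All 6 markers of cortical neurons were at 1 TPM or more in both libraries, and the 2 liver and muscle markers were under 1 TPM in both. Ttr, a marker of choroid plexus, had 1.03 TPM in replicate 1 and 32.43 TPM in replicate 2, while Kl, the other, was under 1 TPM in both. The 3 striatum markers summed to 41.8 TPM in replicate 1 and 69.7 TPM in replicate 2. These are levels of whole tissue, in which fewer cells of a type and less RNA per cell cannot be told apart.

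The stretches that set the Bak1 transcripts apart are shown because the 2 deposited transcript tables divided Bak1 between these transcripts in different ways. Bak1-201 holds an exon of 20 bases at chr17:27021663-27021682 (mm10, minus strand) that Bak1-202, the annotated form with the longest coding sequence, skips. Bak1-204 also skips this exon, with the same junction as Bak1-202. Capitals mark that exon in Bak1-201 and the 2 bases around the resulting junction in Bak1-202, with 5′ at the left.
Bak1-201: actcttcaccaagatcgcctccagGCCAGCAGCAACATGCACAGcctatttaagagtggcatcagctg
Bak1-202: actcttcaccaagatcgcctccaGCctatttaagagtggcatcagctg
The exon lies in the coding part, and its length leaves a remainder of 2 on division by 3, so the reading frame shifts where it is included.
Bak1-204 lacks 5 bases at the start of another exon, chr17:27022873-27022877 (mm10, minus strand). Capitals mark these 5 bases in Bak1-202 and the 2 bases around the junction in Bak1-204.
Bak1-202: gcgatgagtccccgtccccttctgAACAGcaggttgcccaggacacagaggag
Bak1-204: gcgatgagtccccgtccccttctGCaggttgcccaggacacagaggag
A loss of 5 bases shifts the reading frame as well.

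All 9 genes were expressed, at 1 TPM or more in both libraries, and 8 of them were at 5 TPM or more in both. Their mean levels spanned 13.2-fold, with Bax at the top and Bcl2l11 at the bottom. The median of the mean member levels was 14.8 TPM, and 4 of the 9 lay above the median of 17.6 TPM over the 13084 protein-coding genes that were at 1 TPM or more in both libraries. The order of mean levels was Bax, Bcl2l1, Mcl1, Bcl2l2, Bak1, Casp9, Apaf1, Bcl2 and Bcl2l11. Bak1, Casp9 and Apaf1 had overlapping ranges and were not told apart. The ranges of the other neighbours in that order were separate. However, the deposited intervals of Bax and Bcl2l1 overlapped in both libraries, and those of Bcl2 and Bcl2l11 overlapped in replicate 2 only. Summed per gene, the second transcript table kept the order except among Bak1, Casp9 and Apaf1. Apaf1 had a mean of 24.4 TPM there, Casp9 22.5 TPM and Bak1 19.5 TPM.

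**Figure D1:**
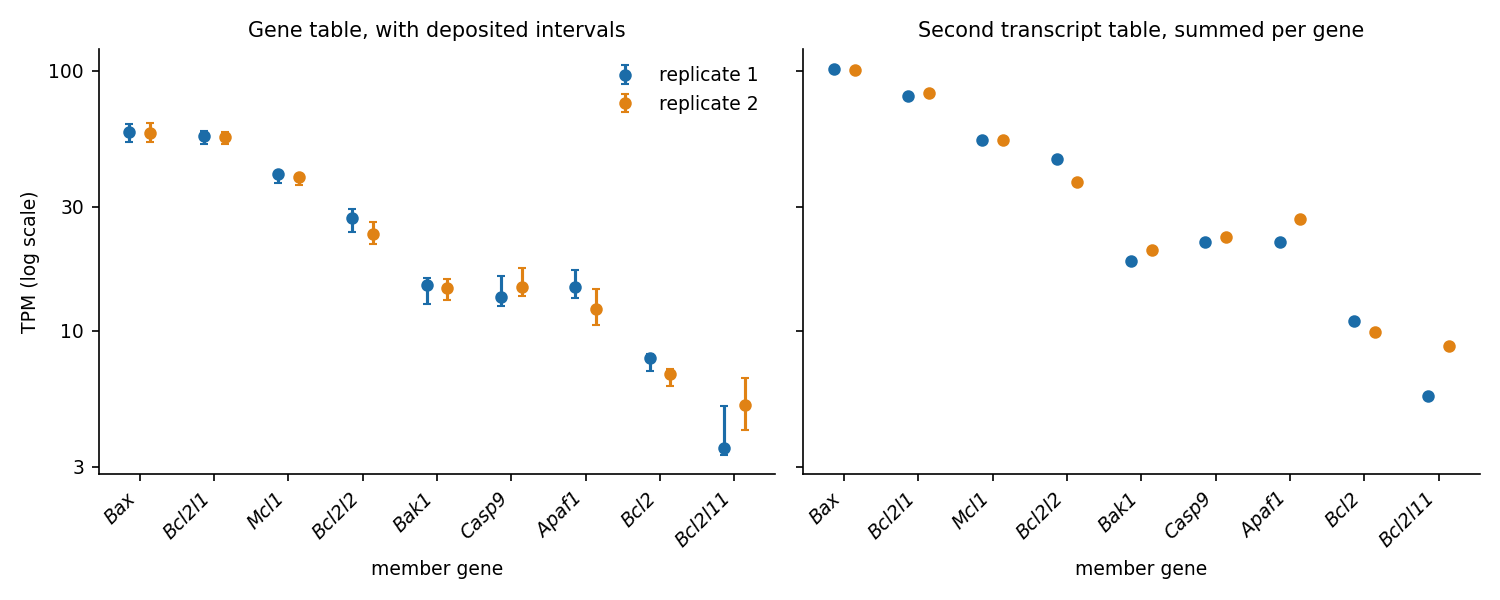
TPM of each member in both libraries (log scale), in the gene table with the deposited interval of each value (left) and in the second transcript table summed per gene (right). Bax and Bcl2l1 sit between 55.8 and 58.0 TPM in the gene table and Bcl2l11 sits lowest at 3.53 and 5.19 TPM. Means over the 2 libraries are 1.32 to 1.82 times as high in the right panel as in the left.

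Bax (ENSMUSG00000003873.11, chr7:45461697-45466898, minus strand, mm10), the effector that moves from the cytosol to mitochondria, had 57.95 TPM in replicate 1 and 57.51 TPM in replicate 2, from 792 and 879 expected counts. Its mean of 57.7 ± 0.311 TPM (SD, n = 2) was above 84.1% of detected protein-coding genes. Bak1 (ENSMUSG00000057789.14, chr17:27019810-27029009, minus strand), the effector that resides in the mitochondrial membrane, had 14.98 TPM in replicate 1 and 14.58 TPM in replicate 2, from 448 and 526 counts. Both libraries thus gave Bax a higher level than Bak1, by 1.97 ± 0.02 on the log2 scale (SD, n = 2), or 3.91-fold. Bax took 79.6% ± 0.223 of the summed effector level.

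Among the guardians, Bcl2l1 (ENSMUSG00000007659.18, chr2:152780668-152831728, minus strand), which encodes Bcl-xL, had the highest level, with 56.24 TPM in replicate 1 and 55.82 TPM in replicate 2. Mcl1 (ENSMUSG00000038612.16, chr3:95658788-95663176, plus strand), which encodes a guardian with rapid protein turnover, had 40.05 TPM in replicate 1 and 39.13 TPM in replicate 2. Bcl2l2 (ENSMUSG00000089682.10, chr14:54883377-54888234, plus strand), which encodes Bcl-w, had 27.27 TPM in replicate 1 and 23.64 TPM in replicate 2. Their ranges over the libraries did not overlap. Bcl2 (ENSMUSG00000057329.7, chr1:106538178-106714274, minus strand), the founding member of the family, was the lowest guardian, with 7.83 TPM in replicate 1 and 6.84 TPM in replicate 2.

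Bcl2l1 supplied 43.7% ± 1.20 of the summed guardian level, Mcl1 30.8% ± 0.506, Bcl2l2 19.8% ± 1.35 and Bcl2 5.71% ± 0.358 (SD, n = 2). Bcl2l1 lay above Bcl2 by 2.94 ± 0.13 on the log2 scale, or 7.66-fold. Relative to Bcl2l1, the log2 level of Mcl1 was -0.50 ± 0.02 and that of Bcl2l2 was -1.14 ± 0.14. The 4 guardians summed to 131 TPM in replicate 1 and 125 TPM in replicate 2, against 72.9 and 72.1 TPM for the 2 effectors. The guardian sum was higher in both libraries, by 0.82 ± 0.04 on the log2 scale or 1.77-fold. With 2 animals an exact sign test cannot give a p below 0.5, so no p is given for these ratios.

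Bcl2l11 (ENSMUSG00000027381.16, chr2:128126038-128162547, plus strand) encodes Bim, a BH3-only protein known for its role in the death of neurons deprived of trophic support. It was the lowest member, with 3.53 TPM in replicate 1 and 5.19 TPM in replicate 2, from 228 and 292 counts. Its SD was 26.9% of its mean, the widest relative spread among the 9.

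Apaf1 (ENSMUSG00000019979.12, chr10:90989311-91082770, minus strand), the scaffold of the apoptosome, had 14.69 TPM in replicate 1 and 12.11 TPM in replicate 2. Casp9 (ENSMUSG00000028914.13, chr4:141793612-141815976, plus strand), the initiator caspase it recruits, had 13.44 TPM in replicate 1 and 14.75 TPM in replicate 2. The log2 ratio of Apaf1 to Casp9 was 0.13 in replicate 1 and -0.28 in replicate 2, so the 2 genes had no common order.

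Transcripts were then compared within each gene. Each library came with 2 transcript tables: the first was made from a transcriptome alignment, like the gene table, and the second from the reads with an index. They quantify the same reads and are not replicates of each other. The 9 genes have 50 annotated transcripts, of which 36 are of the protein-coding class and 32 had a TPM above 0 in both libraries of the first table. For 5 transcripts the tables disagreed outright, with 0 TPM in one of them and 1 TPM or more in the other in both libraries. These were Bak1-202, Bak1-204, Bcl2l1-204, Bcl2l1-208 and Apaf1-204.

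In the first table Bak1 had the lowest share of the 9 genes in protein-coding transcripts, which was not so in the second table, where Bcl2l11 was as low in replicate 1 and Apaf1 was lower in replicate 2. The first table placed 89.3% of it in replicate 1 and 100% in replicate 2 in Bak1-201 and Bak1-204, both annotated as targets of nonsense-mediated decay, the pathway that degrades transcripts with a premature stop codon. Bak1-201, with the 20-base exon, had 9.95 TPM in replicate 1 (deposited interval 7.45 to 11.3) and 12.36 TPM in replicate 2 (9.55 to 13.3). Bak1-204 had 3.42 TPM in replicate 1 and 2.22 TPM in replicate 2. Bak1-202 was listed at 0 TPM in both libraries, with upper bounds of 1.53 TPM in replicate 1 and 0.559 TPM in replicate 2.

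The second table gave another division of Bak1. It placed 13.1 TPM in replicate 1 and 12.6 TPM in replicate 2 in Bak1-202, which is 70.4% and 61.4% of the gene. Bak1-201 had 5.34 TPM in replicate 1 and 7.84 TPM in replicate 2, or 28.7% and 38.3%, and Bak1-204 was at 0. Both tables therefore listed the transcript with the 20-base exon above 0 in both animals, and they differed on whether the main coding form was present. The share of Bak1 in decay-class transcripts was 94.6% ± 7.60 in the first table and 33.5% ± 6.75 in the second (SD, n = 2).

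Beside other genes, that share was high in both tables. Over 3704 protein-coding genes with a decay-class transcript, the median share was 5.41% in the first table, where 99.3% of the genes lay below Bak1. In the second table the median was 8.42%, and 87.6% of the genes lay below Bak1.

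**Figure D2:**
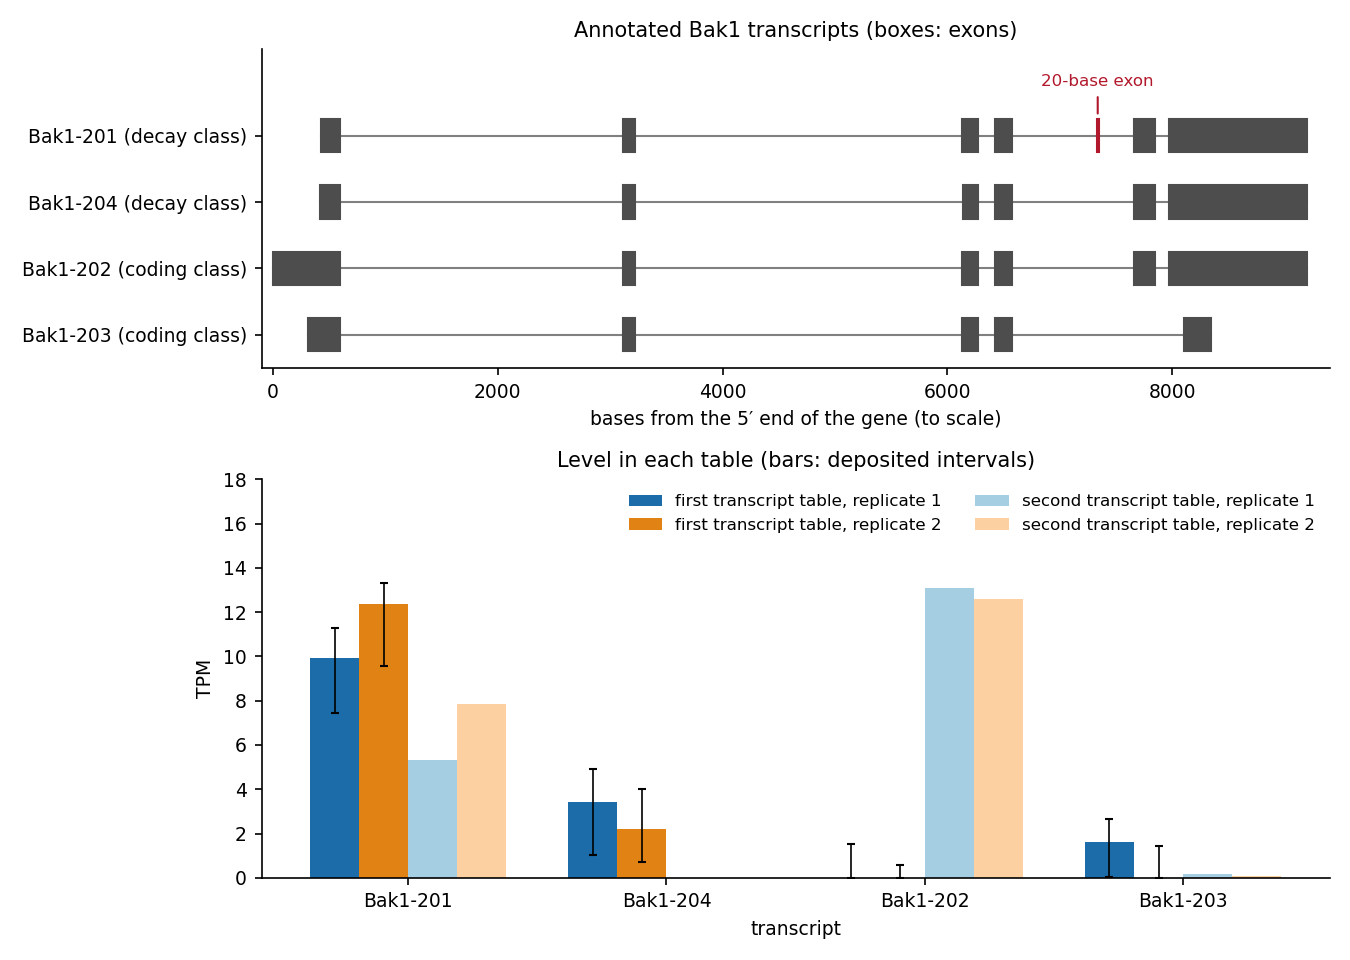
Top: exons of the 4 annotated Bak1 transcripts, to scale in bases from the 5′ end of the gene, with the 20-base exon in red. Bottom: TPM of each transcript in both libraries and both transcript tables, with the deposited interval in the first; Bak1-202 is at 0 in the first table and at 13.1 and 12.6 TPM in the second.

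The Bak1 transcripts differ in few places. Bak1-201 encodes 151 codons, and its stop lies 92 bases before the last exon junction. Bak1-204 encodes 79 codons, with the stop 283 bases before that junction, whereas Bak1-202 encodes 209 codons with its stop in the last exon. The first exon of Bak1-202 has 599 bases and begins 431 bases upstream of that of Bak1-201, which has 168. Of words of 31 bases, 47 occur only in Bak1-201, 29 only in Bak1-204, 24 only in Bak1-203 and 317 only in Bak1-202. Ggnbp1, on the opposite strand, spans all of Bak1 under 2 identifiers, at 4.03 and 3.48 TPM for the identifier with the higher TPM in replicates 1 and 2, and whether counting used strand is not given in the sources used here.

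Known regulators of neuronal splicing were well expressed. Ptbp1, a repressor of neuronal exons in non-neuronal cells, had 46.3 ± 0.658 TPM, and Ptbp2, its paralog in young neurons, had 144 ± 0.354 TPM (SD, n = 2). Srrm4, an activator of neuronal microexons, had 24.7 ± 3.03 TPM. A relation between these levels and the use of the Bak1 exon was not tested.

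For the other 8 genes, transcripts of the protein-coding class held from 78.6% to 100% of the gene in every library of the first table. The second table gave the same class between 71.2% and 100%, apart from Apaf1 in replicate 2 at 54.8%. All of Mcl1 was in Mcl1-201 in both tables and both libraries.

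**Figure D3:**
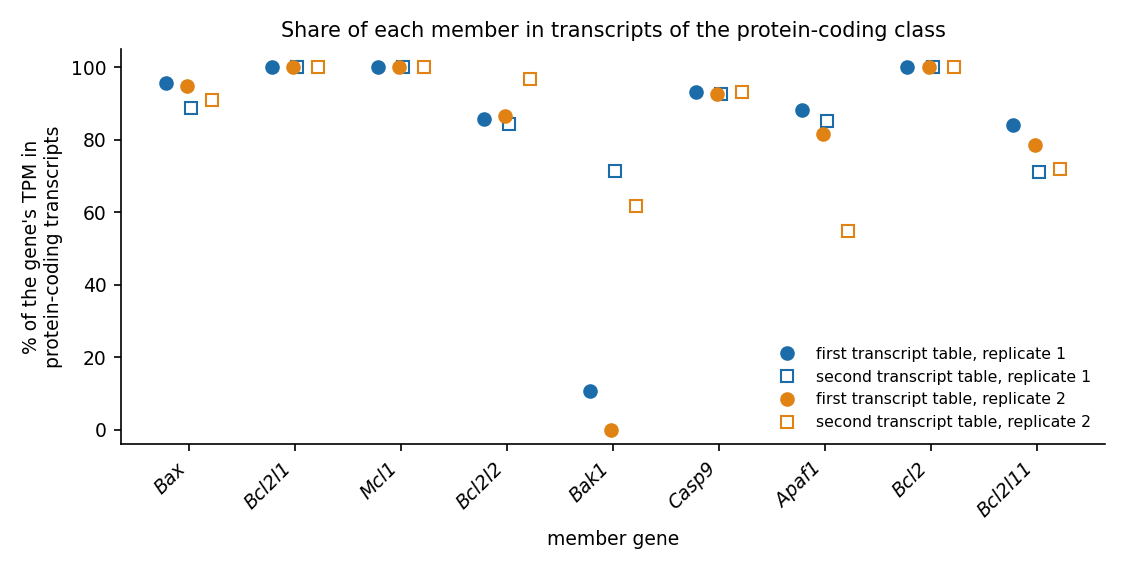
Percent of each member's TPM in transcripts of the protein-coding class, for both libraries in the first (filled circles) and the second (open squares) transcript table. Bak1 is at 10.7% and 0% in the first table and at 71.3% and 61.7% in the second.

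Bax-201, with the full coding sequence of 192 codons, held 65.7% ± 0.711 of Bax in the first table and 60.7% ± 0.414 in the second. Bax-203, whose annotated coding sequence is incomplete, held 22.3% ± 0.321 in the first table and 26.0% ± 1.85 in the second. The division of Bax was thus alike in both animals. Of the words of 31 bases in Bax-201, 19.5% also occur in other genes, and Gm45808 overlaps Bax on the same strand with 2 and 6 counts in replicates 1 and 2.

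Bcl2l1-201 and Bcl2l1-202 encode the same 233 codons, the length of Bcl-xL. Together they held 71.6% of Bcl2l1 in replicate 1 and 74.3% in replicate 2 in the first table, and 65.6% and 68.7% in the second. The pro-apoptotic short form Bcl-xS arises from a splice site inside the first coding exon. Of 9 annotated Bcl2l1 transcripts, 3 join the last coding exon, 2 of them from the outer splice site of the first coding exon and the other, Bcl2l1-209, from another exon. No transcript in the annotation represents the short form, so it was not measured.

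Bcl2-201, with 236 codons and a long 3′ end, held 78.8% ± 3.39 of Bcl2 in the first table and 78.0% ± 4.48 in the second. The remainder was in Bcl2-202, a transcript of a single exon with 199 codons. Bcl2l2-201 held 68.7% ± 5.15 of Bcl2l2 in the first table and 54.3% ± 8.68 in the second. The readthrough gene Gm20521 shares exons with Bcl2l2 and was listed at 0 TPM in replicate 1 and 1.48 TPM in replicate 2, so some Bcl2l2 reads may be split between them.

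Bim is made in several lengths by inclusion or removal of parts of one exon, and the parts are shown because they define the forms. Bcl2l11-205, with 196 codons, is the extra-long form. Bcl2l11-203, with 140 codons, lacks a stretch of 168 bases at chr2:128128757-128128924 (mm10, plus strand), and Bcl2l11-204, with 110 codons, also lacks the next 90 bases at chr2:128128925-128129014. No capitals are used, since each stretch is absent as a whole.
Absent from Bcl2l11-203 and Bcl2l11-204: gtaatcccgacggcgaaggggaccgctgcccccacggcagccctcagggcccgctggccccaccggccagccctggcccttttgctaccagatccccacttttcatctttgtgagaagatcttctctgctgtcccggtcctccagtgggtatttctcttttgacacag
Absent from Bcl2l11-204 alone of these: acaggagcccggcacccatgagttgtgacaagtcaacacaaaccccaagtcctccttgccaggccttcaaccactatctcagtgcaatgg
Both stretches are multiples of 3, so all 3 forms keep the reading frame.

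The extra-long form led in both tables. Bcl2l11-205 held 64.4% of Bcl2l11 in replicate 1 and 50.9% in replicate 2 in the first table, and 51.4% and 40.0% in the second. Bcl2l11-204, the short form, held 4.24% in replicate 1 and 23.7% in replicate 2 in the first table, and 2.77% and 24.4% in the second. Its deposited intervals in the first table, 2.83e-05 to 1.11 TPM in replicate 1 and 4.75e-04 to 2.00 TPM in replicate 2, overlapped, and its 1.42 and 13.60 counts carry little precision. Bcl2l11-203 was at 0 TPM in both libraries of the first table, and held 5.71% in replicate 1 and 0% in replicate 2 in the second. Bcl2l11-201, which encodes the same 110 codons as Bcl2l11-204, was at 0% in the first table and held 0% and 3.94% in the second. Bcl2l11-202, with 91 codons, held 15.5% in replicate 1 and 4.05% in replicate 2 in the first table, and 11.3% and 3.66% in the second. No word of 31 bases is unique to Bcl2l11-203 or Bcl2l11-204.

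Casp9-201, with 454 codons, held 74.6% ± 4.00 of Casp9 in the first table and 69.6% ± 0.222 in the second. Casp9-202, with 405 codons, held 12.1% ± 0.508 in the first table and 23.3% ± 0.495 in the second. The full-length Apaf1 forms Apaf1-201 and Apaf1-202, both with 1249 codons, together held 81.5% in replicate 1 and 64.3% in replicate 2 in the first table, and 74.2% and 36.9% in the second. The share of full-length Apaf1 was higher in replicate 1 in both tables. Apaf1-203, a noncoding transcript of 597 bases, held 0% in replicate 1 and 5.12% in replicate 2 in the first table, and 11.7% and 45.2% in the second. Its 0.00 and 5.91 counts in the first table carry little precision, with a deposited interval of 0.0417 to 1.99 TPM in replicate 2. These are shares of TPM, in which short transcripts weigh more than in counts. Of the expected counts in the first table, Apaf1-202 held a mean of 57.6%, Apaf1-201 35.5% and Apaf1-203 0.279%. No word of 31 bases is unique to Apaf1-201 and 2 are unique to Apaf1-202, so the division between these forms is uncertain. In the second table Apaf1-201 held the larger mean share of TPM, 32.6% ± 15.3 against 22.9% ± 11.1 for Apaf1-202.

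The libraries were compared gene by gene from scaled counts with a two-sided exact binomial test, adjusted by the Benjamini-Hochberg method over all genes tested. This p compares the 2 libraries, not conditions, and covers counting error only. Among the 9 members, 1 differed, Apaf1, while 26.7% of the 20385 genes tested did. Of tested genes with as many counts as the members, 33.1% differed. The labels do not state whether the animals were litter mates or processed on the same day.

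Apaf1 had 50.23 scaled CPM in replicate 1 and 36.44 in replicate 2, from 1360 and 1061 counts. It was higher in replicate 1 by 0.46 on the log2 scale (SE 0.06), 1.38-fold, with an adjusted p of 1.62e-13 by the exact binomial test. Of all genes tested, 12.8% were called higher in replicate 1. The TPM of Apaf1 in the second table ran the other way, with 21.9 in replicate 1 and 26.9 in replicate 2, although its counts there were 1540 and 1219. The mean effective length of Apaf1 over its transcripts was 4910 bases in replicate 1 and 2886 bases in replicate 2 in that table, against 5436 and 4548 bases in the first.

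Cell type markers differed between the libraries as well. Of the 6 cortical neuron markers, 2 were called higher and 2 lower in replicate 1, and all 3 interneuron, all 3 astrocyte, all 3 striatum and both red blood cell markers were called lower in replicate 1. Of the 2 endothelial markers 1 was called higher, and the 2 markers of oligodendrocyte precursors were called 1 in each direction. None of the 3 microglial markers passed the binomial test. Of the 2 choroid plexus markers, Ttr was called lower in replicate 1, with a log2 ratio of -5.02 (SE 0.33). Kl was not called. These calls stand beside 26.7% called over all genes tested, with 12.8% called higher in replicate 1, and the test covers counting error only. The 3 interneuron markers summed to 194 TPM in replicate 1 and 249 TPM in replicate 2. The red blood cell markers summed to 146 TPM in replicate 1 and 302 TPM in replicate 2. The part of these differences in the Apaf1 result was not tested.

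The other 8 members did not pass the test, with log2 ratios from -0.25 for Bcl2l11 (SE 0.13, adjusted p = 0.137 by the exact binomial test) to 0.07 for Bcl2 (SE 0.07, adjusted p = 0.528). Bcl2l11 had 8.42 scaled CPM in replicate 1 and 10.03 in replicate 2, so its wider spread in TPM was not matched by a called difference in counts. Its mean effective length was 3785 bases in replicate 1 and 2924 bases in replicate 2. Bax, at 29.24 and 30.20 scaled CPM, and Mcl1, at 83.58 and 85.92, had log2 ratios of -0.05 (SE 0.07) and -0.04 (SE 0.04).

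**Figure D4:**
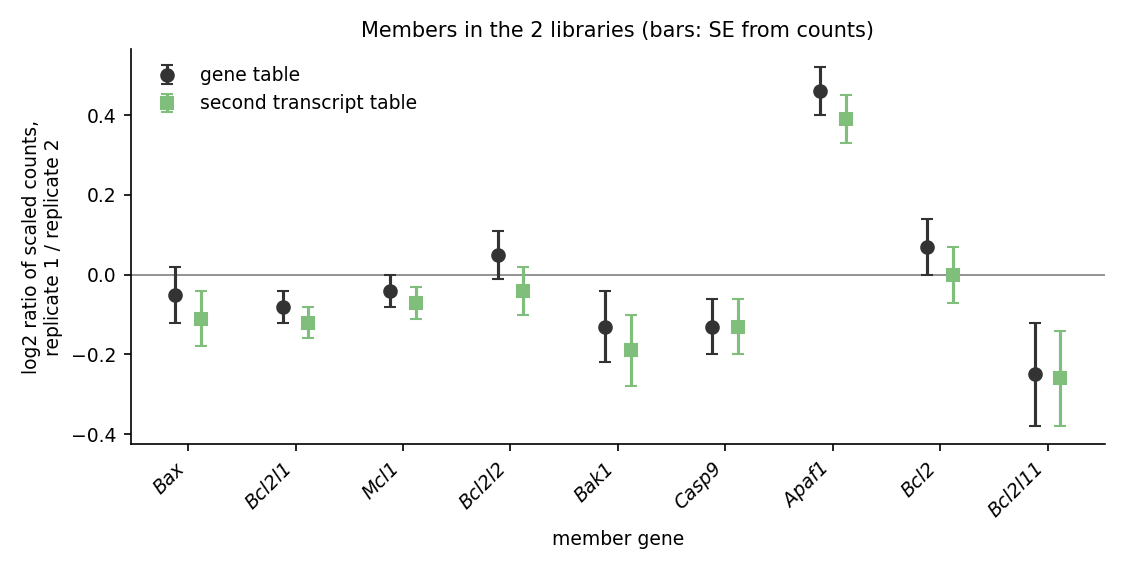
Log2 ratio of scaled counts, replicate 1 over replicate 2, of each member in the gene table (circles) and in the second transcript table (squares), with the standard error from the counts. Apaf1 stands at 0.46 in the gene table, and the other members lie between -0.25 and 0.07 there.

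Other genes of the pathway were described by lists that hold 46 genes in 7 groups, of which 38 were at 1 TPM or more in both libraries. Of protein-coding genes, 59.4% were. The binomial test called 10 of the 41 list genes with enough counts, 3 higher and 7 lower in replicate 1, beside the 26.7% called over all genes tested.

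Of 5 other multidomain family genes, Bok, a relative of Bax and Bak1, was detected at 24.2 ± 0.226 TPM (SD, n = 2). Bcl2l10, Bcl2a1a, Bcl2a1b and Bcl2a1d were under 1 TPM in both libraries, each at 3 counts or fewer, and the near-identical Bcl2a1 copies can share reads. Of 7 other BH3-only genes, 5 were detected, from Bad at 22.8 ± 1.01 TPM to Bmf at 2.98 ± 0.198 TPM. Bcl2l11 lay between these 2, at 4.36 ± 1.17 TPM. Bad and Bbc3 were not told apart at the top. Bbc3 had 25.89 TPM in replicate 1 and 19.24 TPM in replicate 2, against 23.54 and 22.11 TPM for Bad. Pmaip1, which encodes Noxa, had 1.12 TPM in replicate 1 and 0.97 TPM in replicate 2, and Bik was at 0.07 and 0 TPM. Of the 6 other BH3-only genes tested, 1 was called higher and 2 lower in replicate 1. Over all genes tested, 26.7% were called and 12.8% were called higher in replicate 1.

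All 5 genes for proteins released from mitochondria were detected, from Htra2, a serine protease that counters inhibitors of apoptosis, at 33.3 ± 0.311 TPM to Endog, a nuclease, at 7.04 ± 0.559 TPM. The top of that list depended on the table: Cycs, which encodes cytochrome c, had 17.70 TPM in replicate 1 and 17.14 TPM in replicate 2 in the gene table, but 178 and 189 TPM in the second transcript table, where Htra2 had 51.6 and 51.7 TPM. Cycs was chosen for mention after its values were seen. Of the 5 inhibitors of apoptosis, 4 were detected, from Birc6 at 80.1 ± 6.89 TPM to Birc5, which acts in cell division, at 3.49 ± 0.467 TPM, and Birc3 had 1.71 TPM in replicate 1 and 0.50 TPM in replicate 2. Of 6 other caspases, 5 were detected. Casp8, the initiator of the death-receptor pathway, was lowest of those detected at 2.42 ± 0.573 TPM, and Casp12 was under 1 TPM in both.

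All 11 transcriptional and kinase regulators were detected, from Mapk10, the neuronal JNK, at 112 ± 1.20 TPM to Trp73, a relative of p53, at 1.75 ± 0.141 TPM. The top of this list also depended on the table. Mapk8 was close to Mapk10 in the gene table, at 109 ± 4.72 TPM. In the second transcript table Mapk8 had 168 TPM in both libraries, against 116 TPM in replicate 1 and 109 TPM in replicate 2 for Mapk10. All 7 splicing regulators were detected, from Hnrnph1 at 242 ± 22.0 TPM to Srrm4.

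**Figure D5:**
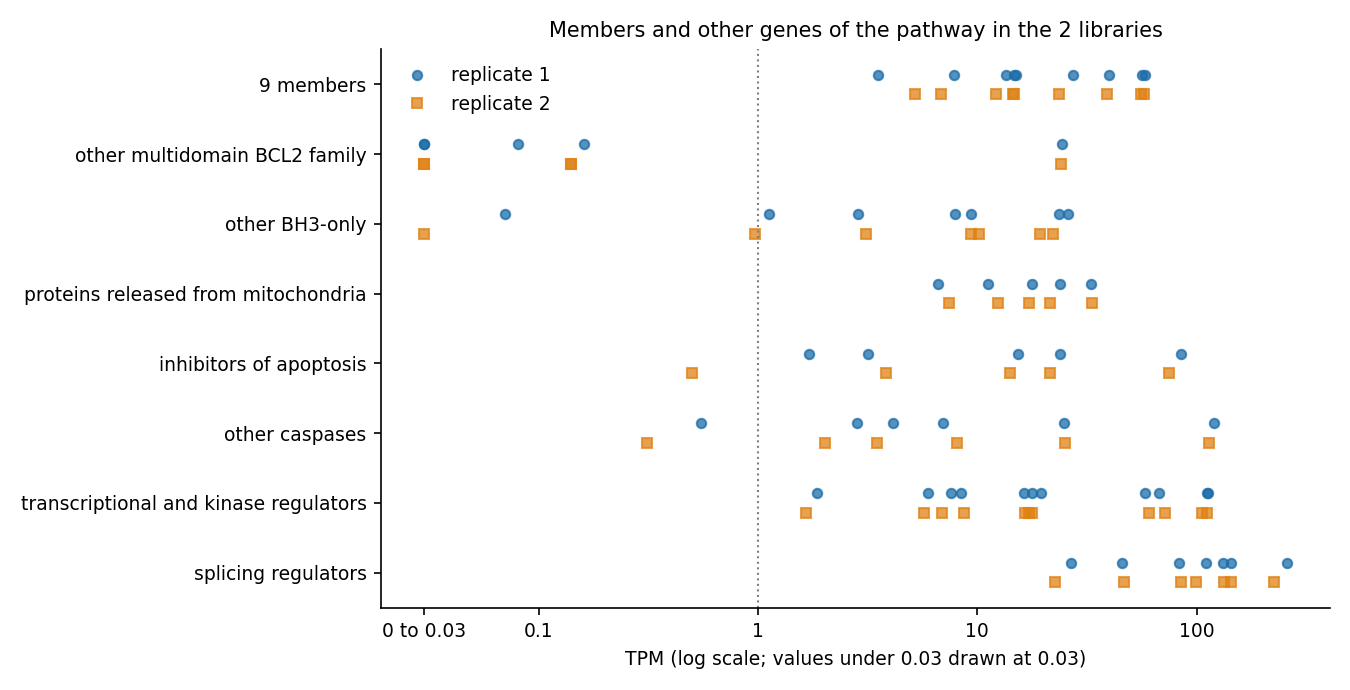
TPM (log scale) of the 9 members and of each gene of the 7 pathway lists in replicate 1 (circles) and replicate 2 (squares), with a dotted line at 1 TPM. The members span 3.53 to 57.95 TPM; 4 of 5 genes among the other multidomain BCL2 family genes lie under the line.

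Member promoters were compared for their content of CG dinucleotides over the 300 bases around the start. Of 12 RefSeq promoters of the 9 genes (GRCm38.p6), 9 had an observed over expected CG ratio of 0.6 or more, as did 69.1% of 13123 promoters of detected protein-coding genes, so the members were close to that background.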

How the data were processed

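Each library came with a gene table and 2 transcript tables that the authors deposited. The gene table and the first transcript table give expected counts and TPM per the file headers, with a posterior mean TPM. They also give lower and upper TPM bounds, deposited with no stated level and treated as scores. The first transcript table also holds, per the file headers, a deposited percent of its gene for each transcript. The percents given here were instead computed from the TPM of each transcript table, and can differ slightly from the deposited ones. Estimated counts and TPM make up the second transcript table, as deposited. The deposited notes name mm10 and the GENCODE M21 annotation, and say that the first tables derive from a transcriptome alignment and the second from the reads. The aligner, the quantifiers and the strand setting were not given in the sources used here. Values were set against mm10 with no separation of alleles, and how well CAST transcripts were counted was not tested.

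Members and lists were chosen with earlier results of these data known. Every member is named. Of each list, the highest and lowest detected gene and up to 4 genes under 1 TPM are named. The splicing regulators Ptbp1 and Ptbp2, and the list genes Bbc3, Cycs and Mapk8, were added after their values were seen. Some list and marker genes are not reported here. Ddit3 has 2 identifiers, and the one with more counts was used. Symbols, exons and sequences come from the M21 annotation and its transcript sequences, promoters from RefSeq. Per-gene values of the second transcript table are sums over transcripts. Levels are means ± SD over 2 libraries. The labels list separate tissue samples for the 2 libraries, under a shared donor record, so the SD may be partly technical.

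For the library comparison, expected counts were rounded, library sizes were scaled with TMM (edgeR 4.0.16, R 4.3.3), and each gene with 10 or more counts in total was tested with a two-sided exact binomial test (scipy 1.17.1) with Benjamini-Hochberg adjustment over all of them and a threshold of 0.05. Log2 ratios used a prior count of 0.5. Spike-in rows, 0.323% of counts in replicate 1 and 0.351% in replicate 2, and 26248 rows with numeric identifiers, 6 and 2 counts, stayed out. The test was checked on simulated data drawn with counting error alone and known library sizes. That check does not cover spread between animals or the TMM scaling. Alternatives were total, DESeq2 1.42.0 and spike-in scaling, no count filter, protein-coding genes only, posterior mean TPM, a pseudocount of 1 TPM, detection at 5 TPM, the second transcript table and each library alone.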

Additional observations from a re-analysis of the deposited data

How the results depend on the processing

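The median member level, here taken in each library and then averaged, was 14.9 TPM. It became 24.4 TPM in the second transcript table, 28.0 TPM when TPM was rescaled to protein-coding genes and 15.3 TPM from posterior means. It ranged from 14.8 to 15.0 TPM with either library left out. Members called between the libraries numbered 1, but 4 with spike-in scaling (Apaf1, Bcl2, Bcl2l2 and Mcl1) and 2 in the second table (Apaf1 and Bcl2l1). Spike-in scaling shifted the median log2 ratio of all genes by 0.15, and the share of called genes that were higher in replicate 1 was 89.5%, beside 47.9% with TMM and 58.1% with total counts. It turned the log2 ratio of Bax to 0.10, Bak1 to 0.02, Bcl2l1 to 0.07, Mcl1 to 0.11 and Casp9 to 0.01, all smaller than that shift, and the second table turned Bcl2l2 to -0.04. Apaf1 was called under all 6 alternatives. Guardians over effectors moved from a log2 ratio of 0.82 to 0.63 in the second table, and to 1.16 with protein-coding transcripts only in the first table, an alternative chosen after seeing the data, since this leaves Bak1 at 1.61 and 0 TPM. With protein-coding transcripts only in the second table, guardians over effectors was 0.82 ± 0.02. Bax over Bak1 was 2.37 in the second table, 2.01 from posterior means and 1.90 with the pseudocount. Bcl2l1 over Bcl2 was 2.78 with the pseudocount, Bcl2l2 over Bcl2l1 was -0.97 in the second table, and Mcl1 over Bcl2l1 was -0.58 there and -0.52 from posterior means. With either library left out, guardians over effectors ranged from 0.80 to 0.85. The Bak1 share in decay-class transcripts was 33.5% in the second table, and 89.3% to 100% with either library left out. The cause of the moves between the 2 tables was not tested. Directions of the balance ratios held except for Apaf1 over Casp9, which was 0.11 in the second table and from -0.28 to 0.13 with either library left out. For single genes, transcripts and lists, 108 alternative values kept to the spread between the libraries or to their side of the threshold, 47 moved further than that spread, 3 passed the threshold that had not with their sign kept, and 6 turned sign as given above, of which Mcl1 also passed the threshold.

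With 2 animals the SD is imprecise. The library test covers counting error alone, and no library can be left out of it. No paired analysis was possible because there is only 1 group.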
